A study of Mus musculus with 8 samples.

Results

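The genes described here were a fixed list of 46 cell cycle and DNA replication genes, out of 21154 named genes on the array. They were 16 genes of DNA replication and nucleotide supply, 21 genes of mitosis and 9 phase regulators and other proliferation genes. All 46 had a non-control probe that was named through its accession, and the brightest probe on average over the 8 arrays stood for each gene. Of these genes 44 passed the filter on dim spots and were tested: all 16 replication genes, 20 mitosis genes and 8 of the others. The cyclin gene Ccne2 was not well above background on any array, and the kinetochore gene Cenpf was above it on a single array, of a Fra-2 control, so neither was tested.

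The study profiled adherent peritoneal macrophages of 8-week-old mice on a 129/C57Bl6 background, on 8 single-colour Agilent arrays, 2 per group. Washed-out peritoneal cells were left overnight on plastic and the floating cells discarded, which leaves whatever other adherent cells the cavity held. Fra-1 knockouts were Fra-1lox/lox MxCre-/+ and delete Fosl1, which encodes the AP-1 subunit Fra-1, wherever the interferon-inducible Mx promoter drove Cre, which is not limited to macrophages. Fra-1 controls were wild-type Fra-1lox/lox littermates without Cre. Fra-2 knockouts were Fra-2lox/lox LysMCre-/+ and delete Fosl2, which encodes Fra-2, in cells of the myeloid lineage where the lysozyme M promoter drives Cre. Fra-2 controls were wild-type Fra-2lox/lox littermates without Cre. The labels describe all 4 Fra-1 line samples as thioglycollate elicited, and give no such entry for the 4 Fra-2 line samples; thioglycollate injection draws fresh cells into the peritoneum. The floxed gene, the thioglycollate entry and the preparation therefore go together and cannot be told apart between the lines. Between the knockouts of the lines, the deleted gene and the Cre driver differ as well and cannot be told apart from these. The design text counts as many mice as there are arrays, mice of either sex were used, and the sex of each sample is not given in the sources used here.

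A cell that divides first copies its DNA and then separates the copies. E2F factors drive the genes of replication as a cell leaves the preceding gap phase. The DREAM complex and later B-MYB and FOXM1 act through CHR elements of the genes of mitosis. Many promoters of mitosis genes also hold CCAAT elements. Resident macrophages of the peritoneum divide at a low rate under control of the growth factor CSF1, and cells recruited by inflammation can divide for a short time after they arrive. On bulk RNA, fewer dividing cells and less RNA per dividing cell cannot be told apart.

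Promoters of 6 of the genes are shown because the regulatory elements differ between replication and mitosis genes, and because Mki67 and Hmgb2 went against the other members in the results. Each is the 250 bases before the start of the gene, 5′ to 3′ on the strand of the gene, from RefSeq on GRCm38.p6. Capitals mark matches on either strand to an E2F element (TTTCCCGC, TTTGGCGC, TTTCGCGC or TTTGCCGC), the CHR element (TTTGAA) or CCAAT, and matches that touch or overlap run together.
Cdc20 promoter, chr4:118437344-118437593, minus strand: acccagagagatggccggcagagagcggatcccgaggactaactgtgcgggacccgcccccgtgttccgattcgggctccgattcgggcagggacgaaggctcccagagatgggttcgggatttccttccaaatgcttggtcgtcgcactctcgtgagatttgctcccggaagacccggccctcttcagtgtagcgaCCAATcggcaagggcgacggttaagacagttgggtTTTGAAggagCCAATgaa
Top2a promoter, chr11:99024190-99024439, minus strand: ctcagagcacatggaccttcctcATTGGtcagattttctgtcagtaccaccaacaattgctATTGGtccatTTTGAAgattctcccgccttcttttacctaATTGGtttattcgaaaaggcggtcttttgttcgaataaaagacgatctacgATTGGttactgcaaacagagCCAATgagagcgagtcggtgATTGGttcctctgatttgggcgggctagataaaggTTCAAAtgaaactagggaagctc
Mcm5 promoter, chr8:75109259-75109508, plus strand: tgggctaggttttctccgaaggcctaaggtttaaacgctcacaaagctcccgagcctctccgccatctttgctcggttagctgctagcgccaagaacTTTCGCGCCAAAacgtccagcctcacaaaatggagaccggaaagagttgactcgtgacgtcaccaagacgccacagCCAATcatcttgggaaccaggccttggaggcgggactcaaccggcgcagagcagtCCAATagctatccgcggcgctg
Mcm6 promoter, chr1:128359706-128359955, minus strand: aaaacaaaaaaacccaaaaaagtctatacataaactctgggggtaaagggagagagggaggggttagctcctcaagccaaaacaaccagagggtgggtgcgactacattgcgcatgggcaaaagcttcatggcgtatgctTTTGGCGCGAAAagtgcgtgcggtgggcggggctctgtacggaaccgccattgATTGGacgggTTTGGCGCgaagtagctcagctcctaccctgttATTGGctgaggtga
Mki67 promoter, chr7:135716380-135716629, minus strand: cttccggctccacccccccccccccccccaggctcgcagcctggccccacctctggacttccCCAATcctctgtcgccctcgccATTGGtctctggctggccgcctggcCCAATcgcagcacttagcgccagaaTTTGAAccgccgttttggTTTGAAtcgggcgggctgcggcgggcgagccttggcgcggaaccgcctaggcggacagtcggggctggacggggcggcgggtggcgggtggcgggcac
Hmgb2 promoter, chr8:57511593-57511842, plus strand: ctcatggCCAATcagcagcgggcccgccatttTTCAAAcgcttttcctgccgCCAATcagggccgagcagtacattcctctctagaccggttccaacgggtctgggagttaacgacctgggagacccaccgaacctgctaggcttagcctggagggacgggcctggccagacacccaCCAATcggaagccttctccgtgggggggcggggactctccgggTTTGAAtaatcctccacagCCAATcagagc
Cdc20, which activates the ligase that ends mitosis, has a CHR match that begins 18 bases before the start, with a CCAAT match on each side. Top2a, the topoisomerase that untangles sister DNA, has 2 CHR matches. The replication helicase genes Mcm5 and Mcm6 have 2 and 3 E2F matches, of which a pair overlaps in each, and no CHR match.

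RefSeq promoters of 300 bases, 250 before and 50 after the start, were matched for 37 of the 46 genes. The CHR element was found in 13 of 18 mitosis promoters and 2 of 14 replication promoters, beside 18.1% of all 27025 promoters. An E2F element was found in 1 of 18 mitosis promoters and 6 of 14 replication promoters, beside 2.32% of all promoters. CCAAT was found in 16 of 18 mitosis and 10 of 14 replication promoters, beside 37.9% of all. The AP-1 element TGANTCA, the site of the family of Fra-1 and Fra-2, was found in 0 of these 37 windows, beside 7.93% of all. A match is a description of letters in a window and not a site of binding.

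Signals are given on the log2 scale relative to the 75th percentile of non-control probes on the same array, so that 0 is as bright as that percentile. The array's 75th percentile ran from 315 to 470 in background-subtracted signal, and 47.7% to 57.6% of non-control spots were well above background on an array. Arrays lay on 2 slides: slide 1 held Fra-1 knockout 1, both Fra-1 controls, Fra-2 knockout 1 and Fra-2 control 1, and slide 2 held Fra-1 knockout 2, Fra-2 knockout 2 and Fra-2 control 2. A feature was called at a limma adjusted p under 0.05 over the 22865 features tested, and 2 arrays a group limit the precision of every value.

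The deleted genes were examined first. Fosl1 had a normalized log2 signal of −4.78 and −4.18 in the Fra-1 knockouts, below background on both arrays, against −2.73 and −1.97 in the Fra-1 controls. For Fosl2 the brighter of 2 probes had 6.43 and 7.14 in the Fra-2 knockouts, against 5.51 and 5.57 in the Fra-2 controls, and the dimmer had −3.96 and −3.82 in the Fra-2 knockouts, against −2.59 and −2.64 in the Fra-2 controls. The Fosl1 probe thus separated the Fra-1 groups as labelled, whereas the 2 Fosl2 probes lay in opposite directions, higher and lower in the arrays labelled Fra-2 knockout. Which of them lies in the deleted part is not given in the sources used here, so the labels of the Fra-2 groups are used as they stand and were not checked by Fosl2.

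Macrophage markers were well above background in every group for 7 of 7 genes, with summed signals relative to the 75th percentile of 893 to 972 in Fra-1 knockouts, 929 to 1180 in Fra-1 controls, 897 to 1010 in Fra-2 knockouts and 1076 to 1218 in Fra-2 controls. Single macrophage genes differed between the lines in both directions within those sums. Cd68 had 8.73 and 8.81 in Fra-1 knockouts, 9.18 and 8.96 in Fra-1 controls, 7.0 and 6.49 in Fra-2 knockouts and 7.21 and 7.06 in Fra-2 controls. Adgre1, the gene of F4/80, had 6.09 and 6.26 in Fra-1 knockouts, 6.5 and 5.89 in Fra-1 controls, 7.74 and 7.49 in Fra-2 knockouts and 7.87 and 7.74 in Fra-2 controls, and Csf1r was likewise lower in the Fra-1 line. Genes of large resident peritoneal macrophages also moved with the line. Timd4 was below background on all Fra-1 line arrays, against 4.49 and 4.44 in Fra-2 knockouts and 4.55 and 4.89 in Fra-2 controls. Prg4 was −0.37 and −0.000037 in Fra-1 knockouts, −0.40 and −0.46 in Fra-1 controls, 7.08 and 6.58 in Fra-2 knockouts and 6.86 and 5.67 in Fra-2 controls. Selp was lower in the Fra-1 line as well, whereas Cd5l was higher, and the summed signal of 6 such genes was 95.5 to 118 in Fra-1 knockouts, 98.5 to 99.5 in Fra-1 controls, 170.3 to 251 in Fra-2 knockouts and 119 to 212 in Fra-2 controls. That of 4 monocyte markers was 4.84 to 5.29 in Fra-1 knockouts, 2.73 to 4.67 in Fra-1 controls, 32.6 to 37.6 in Fra-2 knockouts and 25.2 to 40.4 in Fra-2 controls. Markers of other cells were present as well. The summed signal of 6 fibroblast markers was 40.6 to 63.3 in Fra-1 knockouts, 109 to 157 in Fra-1 controls, 2.74 to 3.12 in Fra-2 knockouts and 1.37 to 3.22 in Fra-2 controls, where Pdgfra and Lum were below background on all Fra-2 line arrays. That of 6 mesothelial markers was 4.72 to 7.06 in Fra-1 knockouts, 10.1 to 14.7 in Fra-1 controls, 0.791 to 0.878 in Fra-2 knockouts and 0.686 to 0.767 in Fra-2 controls, with Upk3b, Lrrn4 and Bnc1 below background in the Fra-2 line. Of the eosinophil markers, Siglecf was higher in the Fra-1 line, at 2.33 and 2.12 in Fra-1 knockouts and 2.34 and 2.11 in Fra-1 controls. It was −1.54 and −1.30 in Fra-2 knockouts and 0.46 and −1.11 in Fra-2 controls. Epx was below background on every array, Prg2 was above it only on Fra-2 knockout 1, and Ear6 overlapped between the lines. Summed signals of B cell and mast cell markers were lower in the Fra-1 line. The summed signal of 5 B cell markers was 2.18 to 5.23 in Fra-1 knockouts, 1.39 to 3.30 in Fra-1 controls, 50.1 to 71.8 in Fra-2 knockouts and 38.0 to 80.2 in Fra-2 controls, with Cd79a below background in the Fra-1 line. That of 6 mast cell markers was 1.28 to 1.51 in Fra-1 knockouts, 2.18 to 2.62 in Fra-1 controls, 42.0 to 98.6 in Fra-2 knockouts and 43.7 to 134.6 in Fra-2 controls. These markers move with the line, as do the cell cycle genes below, and their part in the results was not tested.

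The clearest difference in the cell cycle genes lay between the lines. Signals of most members were higher in the Fra-1 line than in the Fra-2 line, and the mitosis genes showed larger differences than the replication genes. In the knockouts 38 of 44 members were called, 35 higher and 3 lower in the Fra-1 line, beside 41.4% of all features called (22.4% higher and 18.9% lower). In the controls 34 of 44 were called, 33 higher and 1 lower, beside 36.1% of all features (18.1% higher and 17.9% lower). The means in these 2 comparisons come from different arrays. The spread of each gene was estimated from all arrays together and is the same in both, so their calls are not independent. The median log2 difference of the 44 members was 1.59 in the knockouts and 1.55 in the controls, against 0.02 in the knockouts and −0.03 in the controls over all features, and 32 of 44 members were called higher in both, beside 15.2% of all features. Kif11 and Aurkb passed the filter through the Fra-1 line alone, so that the filter favoured a difference for them. Over the other 42 members, 33 were called higher and 3 lower between the knockouts, beside 22.3% and 18.6% of the 20107 features that passed in both lines, and 32 higher and 1 lower between the controls, beside 17.1% and 17.2%. All 4 Fra-1 line arrays lay above all 4 Fra-2 line arrays for 38 of 44 members, beside 26.4% of all features, and below them for 2 members, beside 24.7%.

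**Figure D1:**
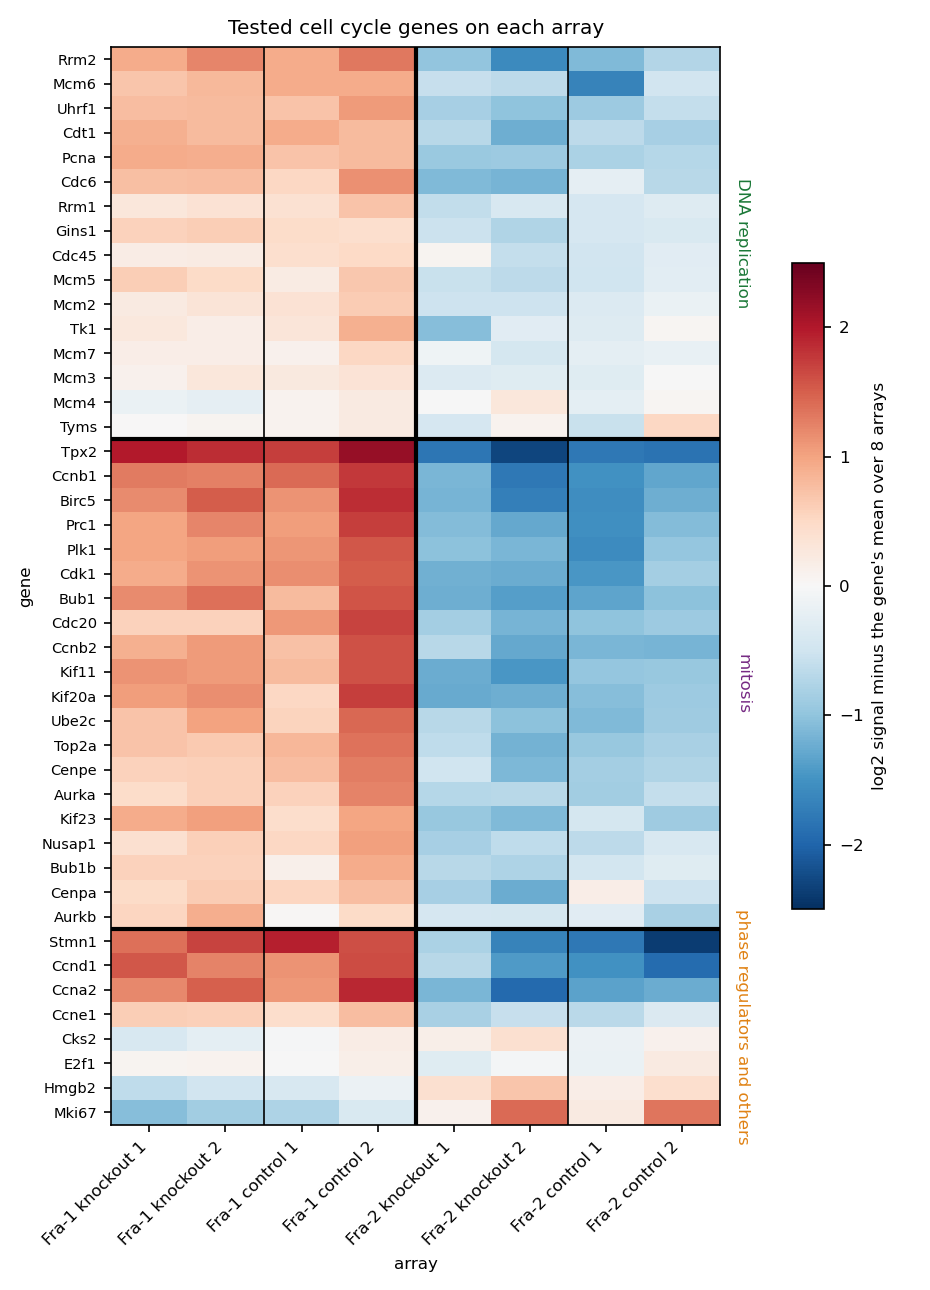
Normalized log2 signal of the 44 tested cell cycle genes (rows, grouped by role) on each of the 8 arrays (columns), as the difference from the gene's mean over the arrays; red is above and blue below that mean. The 4 Fra-1 line arrays are red for nearly all mitosis genes and the 4 Fra-2 line arrays blue, while Hmgb2 and Mki67 show the opposite order.

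Among the replication genes, the helicase subunits that unwind DNA ranged from clear differences to none. Mcm6 had 4.75 and 4.87 in Fra-1 knockouts, 4.98 and 4.99 in Fra-1 controls, 3.48 and 3.40 in Fra-2 knockouts and 2.38 and 3.58 in Fra-2 controls. Its log2 difference between lines was 1.37 (SE 0.36, limma adjusted p = 0.0277) in the knockouts and 2.00 (SE 0.36, adjusted p = 0.0083) in the controls. All Fra-1 line arrays were above all Fra-2 line arrays, and 1 Fra-2 control lay well below the other.

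Mcm2 had 0.66 and 0.74 in Fra-1 knockouts, 0.79 and 1.07 in Fra-1 controls, −0.08 and −0.09 in Fra-2 knockouts and 0.09 and 0.27 in Fra-2 controls, with line differences of 0.79 in the knockouts and 0.75 in the controls. Mcm5 had 1.82 and 1.67 in Fra-1 knockouts, 1.40 and 1.87 in Fra-1 controls, 0.65 and 0.54 in Fra-2 knockouts and 0.71 and 0.94 in Fra-2 controls, with differences of 1.15 in the knockouts and 0.81 in the controls. Both genes were called in both comparisons and no line arrays overlapped. Between the controls, Mcm5 was called in 12 of 16 alternatives. It was not called without Fra-1 control 2 (log2 difference 0.58, adjusted p = 0.0707), without Fra-2 control 1 (0.70, adjusted p = 0.0946), with no filter (adjusted p = 0.0513) or with only the arrays compared (adjusted p = 0.06). Mcm2 was not called between the controls without Fra-2 control 1 (0.66, adjusted p = 0.0547), nor between the knockouts without Fra-1 knockout 2 (0.75, adjusted p = 0.0525).

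Mcm4, of the same helicase ring, had 2.99 and 2.93 in Fra-1 knockouts, 3.23 and 3.38 in Fra-1 controls, 3.14 and 3.44 in Fra-2 knockouts and 2.90 and 3.20 in Fra-2 controls. The Fra-1 arrays lay below the Fra-2 arrays in the knockouts and above them in the controls, and Mcm4 was called in neither comparison. Mcm7 was not called either, with differences of 0.44 in the knockouts and 0.52 in the controls, and Mcm3 was called in the knockouts (0.52, adjusted p = 0.0327) and not in the controls (0.45, adjusted p = 0.0559).

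The sliding clamp gene Pcna, which tethers the polymerase to DNA, differed clearly between the lines and little within groups. It had 6.68 and 6.66 in Fra-1 knockouts, 6.46 and 6.55 in Fra-1 controls, 4.83 and 4.85 in Fra-2 knockouts and 4.96 and 5.05 in Fra-2 controls. Its signal was 3.55-fold higher in the Fra-1 line in the knockouts (log2 difference 1.83, SE 0.11, limma adjusted p = 0.000209) and 2.83-fold in the controls (1.50, SE 0.11, adjusted p = 0.000418). The origin licensing genes Cdc6 and Cdt1 and the hemimethylated-DNA reader Uhrf1 had differences of 1.89, 1.80 and 1.70 in the knockouts and 1.28, 1.60 and 1.63 in the controls, all called, where Cdc6 was above background on 1 of 2 Fra-2 knockout arrays.

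Rrm2, the inducible subunit of ribonucleotide reductase, had 2.17 and 2.45 in Fra-1 knockouts, 2.18 and 2.57 in Fra-1 controls, 0.25 and −0.35 in Fra-2 knockouts and 0.14 and 0.52 in Fra-2 controls. It showed the largest line differences of the replication genes, 5.14-fold higher in the Fra-1 line in the knockouts (log2 difference 2.36, SE 0.27, limma adjusted p = 0.00152) and 4.13-fold in the controls (2.04, SE 0.27, adjusted p = 0.00269). The partner subunit Rrm1 differed by 0.84 in the knockouts and 0.91 in the controls, both called. The thymidylate synthase gene Tyms had −1.74 and −1.68 in Fra-1 knockouts, −1.66 and −1.53 in Fra-1 controls, −2.16 and −1.66 in Fra-2 knockouts and −2.30 and −1.23 in Fra-2 controls. Tyms overlapped between the lines, the 2 arrays of each Fra-2 group lay far apart, and it was not called, nor was the salvage kinase gene Tk1.

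Over the 16 replication genes, 11 were called higher between the knockouts and 11 between the controls, beside 22.4% and 18.1% of all features. None was called lower, beside 18.9% and 17.9%, and 10 were called higher in both, beside 15.2%. The median log2 difference of the 16 genes was 1.02 in the knockouts and 0.84 in the controls. Ranges were −0.33 to 2.36 in the knockouts and 0.18 to 2.04 in the controls. All 4 Fra-1 line arrays were above all 4 Fra-2 line arrays for 14 of 16, beside 26.4% of all features.

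The mitosis genes moved further. Cyclin B and its kinase CDK1 start mitosis. Ccnb1 had 1.13 and 1.08 in Fra-1 knockouts, 1.24 and 1.58 in Fra-1 controls, −1.31 and −1.96 in Fra-2 knockouts and −1.69 and −1.48 in Fra-2 controls. That was 6.70-fold higher in the Fra-1 line in the knockouts (log2 difference 2.74, SE 0.24, limma adjusted p = 0.00068) and 7.97-fold in the controls (3.00, SE 0.24, adjusted p = 0.000562). No arrays of the lines overlapped.

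Cdk1 had 0.56 and 0.75 in Fra-1 knockouts, 0.80 and 1.15 in Fra-1 controls, −1.57 and −1.62 in Fra-2 knockouts and −1.82 and −1.21 in Fra-2 controls, with differences of 2.25 in the knockouts and 2.49 in the controls. Plk1, the polo-like kinase of mitotic entry and spindle poles, had 1.99 and 2.03 in Fra-1 knockouts, 2.09 and 2.55 in Fra-1 controls, −0.03 and −0.15 in Fra-2 knockouts and −0.57 and 0.02 in Fra-2 controls, with differences of 2.10 in the knockouts and 2.60 in the controls. Both kinases were called in both comparisons, with the lines apart on every array. Ccnb2, the second mitotic cyclin B gene, had 1.45 and 1.62 in Fra-1 knockouts, 1.29 and 2.15 in Fra-1 controls, −0.15 and −0.73 in Fra-2 knockouts and −0.60 and −0.61 in Fra-2 controls, with differences of 1.98 in the knockouts and 2.32 in the controls, both called.

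Among the mitosis genes the widest gap was that of Tpx2, which nucleates spindle microtubules and activates Aurora A. It had 0.95 and 0.82 in Fra-1 knockouts, 0.71 and 1.16 in Fra-1 controls, −2.83 and −3.32 in Fra-2 knockouts and −2.81 and −2.88 in Fra-2 controls. Tpx2 was 15.5-fold higher in the Fra-1 line in the knockouts (log2 difference 3.96, SE 0.22, limma adjusted p = 0.000183) and 13.7-fold in the controls (3.78, SE 0.22, adjusted p = 0.000235). Aurka, the kinase it activates, differed by 1.23 in the knockouts and 1.64 in the controls, both called.

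Birc5, which encodes survivin of the chromosomal passenger complex, had 3.25 and 3.57 in Fra-1 knockouts, 3.18 and 3.90 in Fra-1 controls, 0.89 and 0.35 in Fra-2 knockouts and 0.51 and 0.83 in Fra-2 controls, with differences of 2.79 in the knockouts and 2.87 in the controls. The spindle checkpoint gene Bub1 had −1.41 and −1.20 in Fra-1 knockouts, −1.79 and −1.02 in Fra-1 controls, −3.80 and −3.95 in Fra-2 knockouts and −3.90 and −3.62 in Fra-2 controls, with differences of 2.57 in the knockouts and 2.35 in the controls; 1 of the 2 Fra-2 knockout arrays was not well above background. Prc1, which bundles midzone microtubules, had 1.21 and 1.43 in Fra-1 knockouts, 1.25 and 1.94 in Fra-1 controls, −0.87 and −1.06 in Fra-2 knockouts and −1.33 and −0.88 in Fra-2 controls, with differences of 2.28 in the knockouts and 2.70 in the controls. In all 3 genes every Fra-1 line array was above every Fra-2 line array, and all 3 were called in both comparisons.

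Cdc20 had 1.54 and 1.54 in Fra-1 knockouts, 2.04 and 2.65 in Fra-1 controls, 0.11 and −0.21 in Fra-2 knockouts and −0.04 and 0.05 in Fra-2 controls. Top2a had −0.11 and −0.17 in Fra-1 knockouts, 0.00 and 0.54 in Fra-1 controls, −1.46 and −2.0 in Fra-2 knockouts and −1.77 and −1.63 in Fra-2 controls. Line differences were 1.59 in the knockouts and 2.34 in the controls for Cdc20, and 1.59 in the knockouts and 1.97 in the controls for Top2a, all called. Kif20a, a kinesin of the dividing spindle, had 0.15 and 0.25 in Fra-1 knockouts, −0.39 and 0.82 in Fra-1 controls, −2.17 and −2.12 in Fra-2 knockouts and −1.96 and −1.82 in Fra-2 controls, and the lines did not overlap.

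Where a dim gene was below background only a bound can be given. The spindle motor gene Kif11 had −2.82 and −2.88 in Fra-1 knockouts, −3.15 and −2.36 in Fra-1 controls, −5.18 and −5.40 in Fra-2 knockouts and −4.91 and −4.89 in Fra-2 controls. It was below background on all Fra-2 line arrays. Its signal was at least 2.28-fold higher in Fra-1 knockouts than in Fra-2 knockouts. In Fra-1 controls it was at least 3.57-fold higher than in Fra-2 controls. Kif11 passed the filter only through the Fra-1 line, so that the filter favoured this difference and its calls add no support. Aurkb, the kinase gene of the passenger complex, had −4.07 and −3.69 in Fra-1 knockouts, −4.58 and −4.11 in Fra-1 controls, −5.02 and −5.05 in Fra-2 knockouts and −4.88 and −5.41 in Fra-2 controls, and was below background on all Fra-2 line arrays and 1 Fra-1 control. It was at least 1.11-fold higher in Fra-1 knockouts than in Fra-2 knockouts. Aurkb passed the filter only through the Fra-1 knockouts, so its call between the knockouts adds no support.

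Of the 18 mitosis genes that passed the filter in both lines, 18 were called higher between the knockouts and 17 between the controls. Over all features that passed in both lines, these shares were 22.3% and 17.1%. The centromere histone gene Cenpa was not called between the controls (0.83, limma adjusted p = 0.0554). The median log2 difference of the 18 genes was 1.99 in the knockouts and 2.21 in the controls. Ranges were 1.22 to 3.96 in the knockouts and 0.83 to 3.78 in the controls. For 18 of 18 every Fra-1 line array was above every Fra-2 line array, beside 5324 of the 20107 features. Over all 20 tested mitosis genes, with Kif11 at its bounds and Aurkb at its bound between the knockouts, the median was 1.85 in the knockouts and 2.05 in the controls. The larger median of the mitosis genes than of the replication genes is a description of 2 lists, and the difference between them was not tested.

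**Figure D2:**
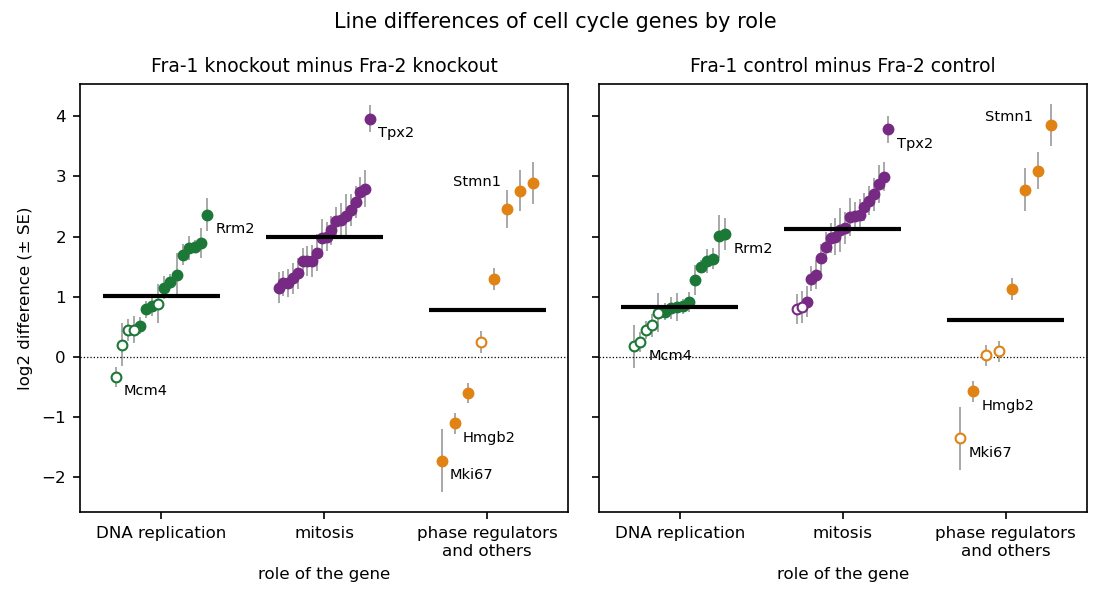
Log2 difference of the Fra-1 line minus the Fra-2 line for each tested gene, in the knockouts (left) and the controls (right), by role; bars are SE, filled points were called and black lines are medians. The medians are 1.02 in the knockouts and 0.84 in the controls for DNA replication genes, and 1.99 in the knockouts and 2.12 in the controls for the 20 tested mitosis genes (Kif11 and Aurkb at their fitted values), and Mki67 and Hmgb2 lie below 0 in both panels.

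The phase regulators and other proliferation genes were split. The D-type cyclin gene Ccnd1, which relays growth factor signals to the cell cycle, had 1.84 and 1.52 in Fra-1 knockouts, 1.39 and 1.91 in Fra-1 controls, −0.42 and −1.15 in Fra-2 knockouts and −1.24 and −1.65 in Fra-2 controls. It was 5.49-fold higher in the Fra-1 line in the knockouts (log2 difference 2.46, SE 0.31, limma adjusted p = 0.00222) and 8.55-fold in the controls (3.10, SE 0.31, adjusted p = 0.0011). Ccna2, the cyclin of replication and mitotic entry, had 0.23 and 0.51 in Fra-1 knockouts, 0.10 and 0.91 in Fra-1 controls, −2.12 and −2.92 in Fra-2 knockouts and −2.32 and −2.22 in Fra-2 controls, with differences of 2.89 in the knockouts and 2.78 in the controls. Both cyclins were apart between the lines on every array and called in both comparisons, as was Ccne1, the cyclin of the start of replication, with differences of 1.30 in the knockouts and 1.13 in the controls.

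Stmn1, a microtubule-destabilizing protein of dividing cells, had 4.27 and 4.59 in Fra-1 knockouts, 4.83 and 4.51 in Fra-1 controls, 2.10 and 1.23 in Fra-2 knockouts and 1.11 and 0.52 in Fra-2 controls. It was 6.79-fold higher in the Fra-1 line in the knockouts (log2 difference 2.76, SE 0.35, limma adjusted p = 0.00209) and 14.5-fold in the controls (3.85, SE 0.35, adjusted p = 0.000761). A second Stmn1 probe had log2 differences of 2.67 in the knockouts and 2.69 in the controls, so the size in the controls depended on the probe. The replication factor gene E2f1 had 2.54 and 2.56 in Fra-1 knockouts, 2.46 and 2.61 in Fra-1 controls, 2.17 and 2.44 in Fra-2 knockouts and 2.31 and 2.71 in Fra-2 controls. E2f1 overlapped between the lines and was not called, with differences of 0.25 in the knockouts and 0.03 in the controls and both 95% intervals within 1 log2 unit of 0.

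Mki67, the gene of the proliferation marker Ki-67 that coats mitotic chromosomes, ran the other way. It had 1.95 and 2.15 in Fra-1 knockouts, 2.24 and 2.63 in Fra-1 controls, 3.11 and 4.43 in Fra-2 knockouts and 3.24 and 4.34 in Fra-2 controls. Every Fra-1 line array was below every Fra-2 line array, and within each Fra-2 group the array on slide 2 was higher than that on slide 1. The signal in the Fra-1 line was 3.30-fold lower in the knockouts (log2 difference −1.72, SE 0.52, limma adjusted p = 0.0427) and 2.55-fold lower in the controls (−1.35, SE 0.52, adjusted p = 0.0932, not called).

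Within slide 1 the difference of Mki67 was −1.16 in the knockouts and −0.80 in the controls, and within slide 2 it was −2.28 in the knockouts. Over 16 alternatives the call between the knockouts was kept in 9, with adjusted p from 0.0126 to 0.155, and the difference was −1.06 without Fra-2 knockout 2 (adjusted p = 0.143). Between the controls it was called in 2 of 16. A second Mki67 probe had differences of −1.88 in the knockouts and −1.40 in the controls, in the same direction.

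Hmgb2, a chromatin protein of dividing cells, had 3.28 and 3.44 in Fra-1 knockouts, 3.50 and 3.76 in Fra-1 controls, 4.32 and 4.60 in Fra-2 knockouts and 4.07 and 4.33 in Fra-2 controls. Every Fra-1 line array was below every Fra-2 line array. It was 2.15-fold lower in the Fra-1 line in the knockouts (limma adjusted p = 0.00471) and 1.49-fold lower in the controls (log2 difference −0.57, SE 0.17, adjusted p = 0.0478). Cks2, whose protein binds cyclin-dependent kinases, had −1.48 and −1.33 in Fra-1 knockouts, −1.11 and −0.90 in Fra-1 controls, −0.93 and −0.67 in Fra-2 knockouts and −1.23 and −0.96 in Fra-2 controls. It was called lower between the knockouts (−0.60, adjusted p = 0.0325) and not between the controls (0.09, adjusted p = 0.699). Mki67 and Hmgb2 carry CHR and CCAAT matches in the promoters shown, as do many mitosis genes that were higher in the Fra-1 line.

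**Figure D3:**
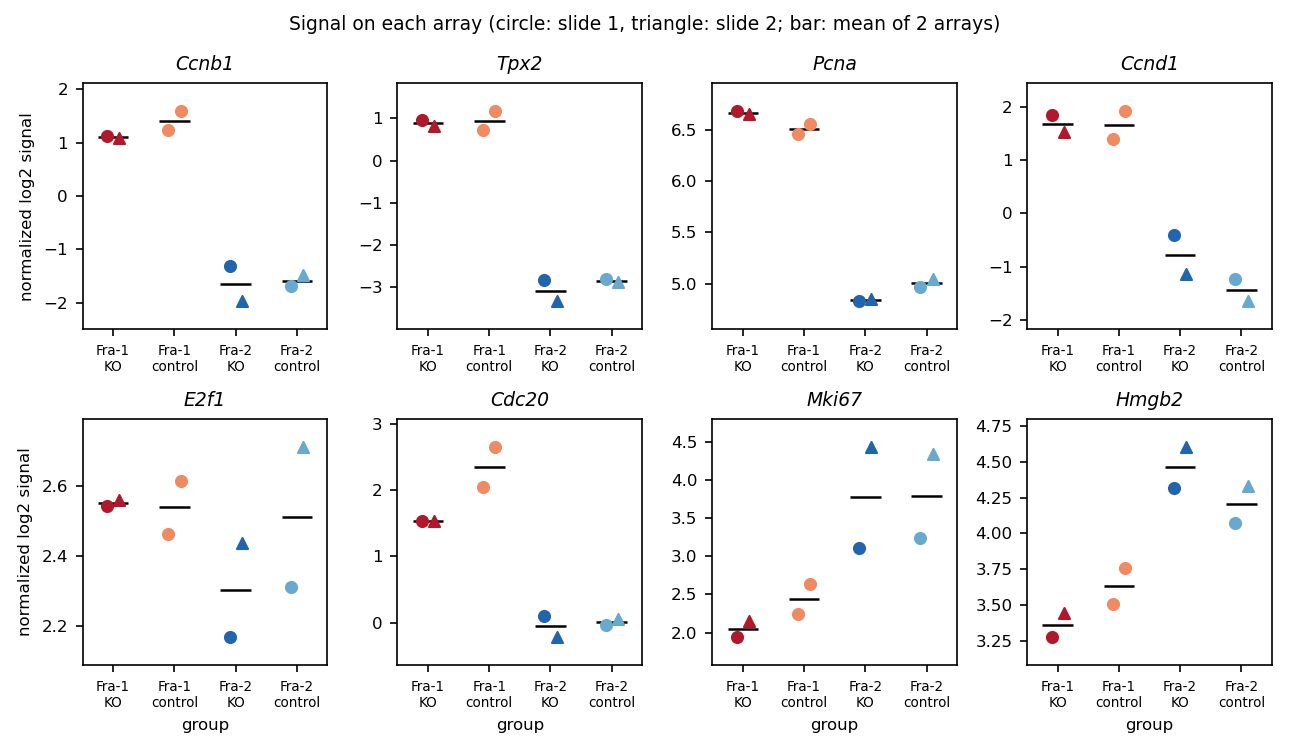
Normalized log2 signal of 8 genes on each array, by group; bars are means of 2 arrays, circles are slide 1 and triangles slide 2, and each panel has its own scale. Ccnb1, Tpx2, Pcna, Ccnd1 and Cdc20 are higher in all 4 Fra-1 line arrays, E2f1 overlaps, and Mki67 and Hmgb2 are lower, with Mki67 split by slide within the Fra-2 line.

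Different probes of a gene were compared where more than 1 passed the filter. In both line comparisons, 12 of 12 further probes of 10 genes had the same sign as the brightest probe of their gene. Among these, the probes of Cdk1, Cdc6, Uhrf1 and Tpx2 and a probe of Ccnb1 passed the filter through the Fra-1 line alone. The filter favoured a higher signal in the Fra-1 line for them, so their sign adds no support. For knockout minus control, the sign was the same for 11 of 12 probes in the Fra-1 line and 8 of 12 in the Fra-2 line.

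Between Fra-1 knockouts and Fra-1 controls, none of the 44 members was called at an adjusted p under 0.05 in limma, beside 0.0131% of all features, and 1 member had an unadjusted p under 0.05, beside 8.81% of all features. That member was Cdc20, whose arrays were 1.54 and 1.54 in Fra-1 knockouts, against 2.04 and 2.65 in Fra-1 controls. The log2 difference was −0.81 (SE 0.22, limma adjusted p = 0.420), and the groups did not overlap. The next smallest p-values were those of Cks2 (−0.40), Mcm4 (−0.35), Aurkb (0.46), Cenpe (−0.45), which encodes a kinetochore motor, and Top2a (−0.41), with adjusted p from 0.577 to 0.679. Cenpe had 1.39 and 1.41 in Fra-1 knockouts, against 1.60 and 2.10 in Fra-1 controls, without overlap.

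The median log2 difference of the members in Fra-1 knockouts was −0.13, against 0.03 over all features, and 10 of 44 differences were above 0, beside 55.2% of all features. The arrays did not overlap for 3 members that were higher and 16 that were lower in the knockouts, beside 27.6% and 18.7% of all features. The median was −0.11 for replication genes and −0.16 for mitosis genes. These values turned on which control was used: against Fra-1 control 1 alone the median was 0.04 with 23 of 44 positive, and against Fra-1 control 2 alone it was −0.37 with 40 of 44 negative. For the mitosis genes the median was 0.12 against Fra-1 control 1 and −0.51 against Fra-1 control 2.

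The 2 Fra-1 controls themselves stood apart in these genes. Fra-1 control 2 was above Fra-1 control 1 in 41 of 44 members and in 20 of 20 mitosis genes, beside 46.8% of all features, with a median gap of 0.43 and the largest, 1.21, in the mitotic kinesin gene Kif20a. Both Fra-1 knockouts lay between the controls for 17 of 44 members, beside 17.7% of all features. Fra-1 control 2 also had the highest summed fibroblast (157) and mesothelial (14.7) marker signals of the arrays, against 109 and 10.1 in Fra-1 control 1, and the part of these cells in the result was not tested. The Fra-1 knockouts differed from each other by a median of 0.10.

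The 95% interval of the Fra-1 knockout difference lay within 1 log2 unit of 0 for 36 of 44 members, so that larger changes of these were outside the interval. The lowest bound was −1.67, of Mki67, and the highest 1.08, of Aurkb.

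Between the arrays labelled Fra-2 knockout and Fra-2 control, none of the 44 members was called in limma, beside 0.00875% of all features, and 2 members had an unadjusted p under 0.05, beside 8.82% of all features. Cenpa had 0.65 and 0.25 in Fra-2 knockouts, against 1.66 and 0.97 in Fra-2 controls, a log2 difference of −0.86 (SE 0.27, limma adjusted p = 0.417). Cdc6 had −4.0 and −4.05 in Fra-2 knockouts, against −3.11 and −3.58 in Fra-2 controls, a difference of −0.68 (SE 0.25, adjusted p = 0.507). Cenpa was lower within each slide, with differences of −1.01 and −0.72, without overlap of the groups. Cdc6 was below background on Fra-2 knockout 1, where the lowest signal well above background was −3.58, so its fitted difference is not an exact size, and within slide 2, where it was above background, it was −0.48.

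Stmn1 and Ccnd1 had the largest positive differences, 0.85 (95% interval −0.00074 to 1.70) and 0.66 (95% interval −0.11 to 1.43), with adjusted p of 0.567 and 0.635. A second Stmn1 probe, well above background on every array, had a difference of 0.048, and its groups overlapped. The differences of the replication genes Gins1 and Mcm2 were −0.25 and −0.26, where Gins1 had −0.06 and −0.27 in Fra-2 knockouts, against 0.06 and 0.10 in Fra-2 controls. The median of the members was −0.13, against −0.03 over all features, with −0.17 for replication genes and −0.06 for mitosis genes, and it was 0.10 within slide 1. Differences were above 0 for 13 of 44 members, beside 45.2% of all features, and arrays did not overlap for 3 higher and 11 lower members, beside 15% and 20.1%. For 32 of 44 members the 95% interval lay within 1 log2 unit of 0.

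**Figure D4:**
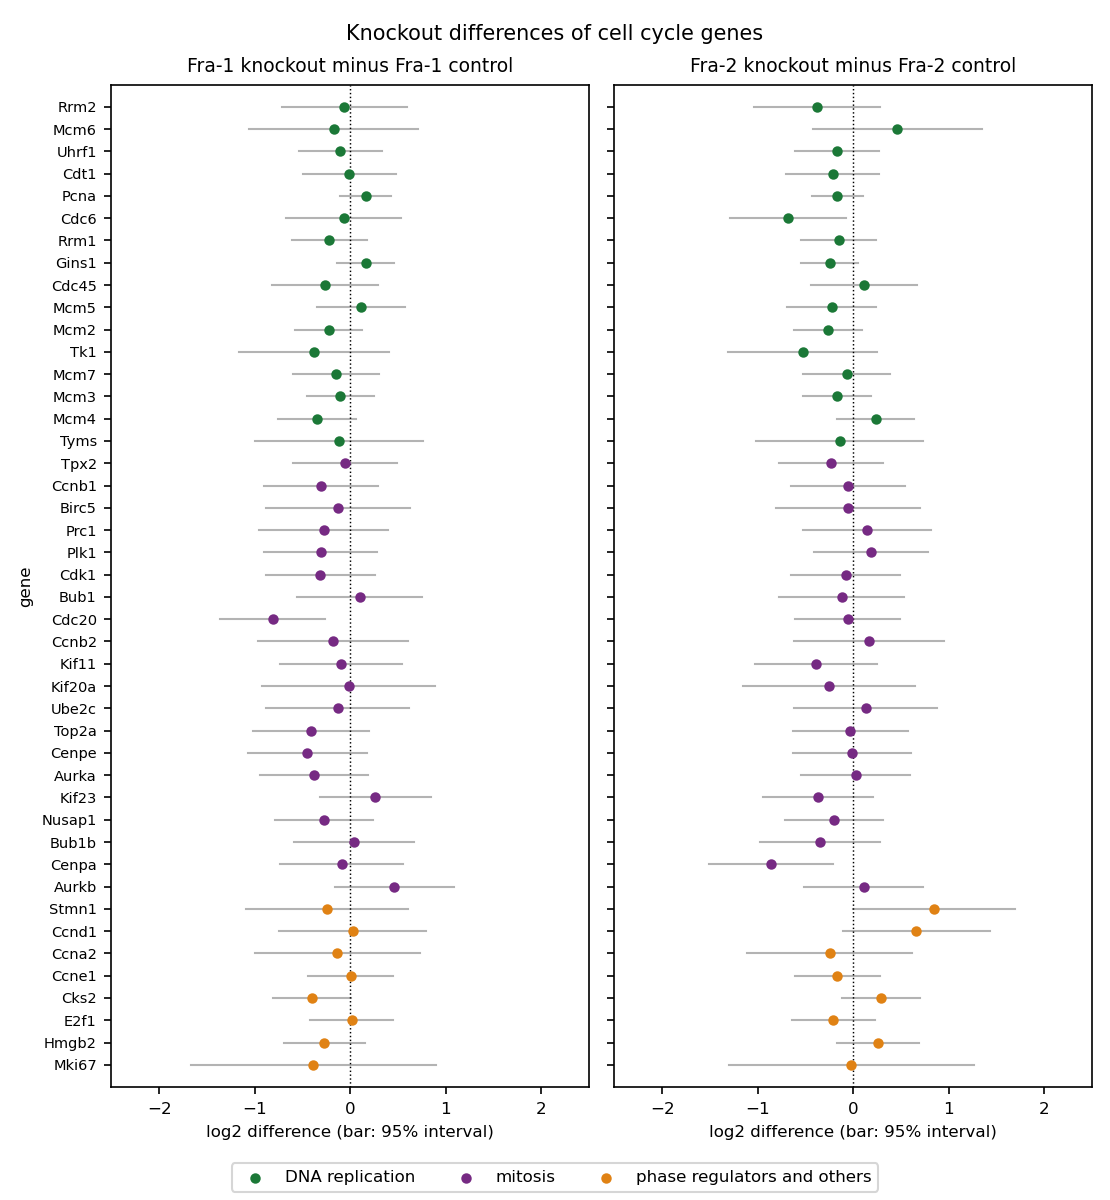
Log2 difference of knockout minus control with its 95% interval for the 44 tested genes, in the Fra-1 line (left) and the Fra-2 line (right), coloured by role. Nearly all intervals cover 0; those of Cdc20 in the Fra-1 line and of Cenpa and Cdc6 in the Fra-2 line do not, and no gene was called after adjustment.

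The difference between the Fra-1 and Fra-2 knockout effects was tested itself. None of the 44 members was called in limma, beside 0.00437% of all features, and 2 had an unadjusted p under 0.05, beside 9.54%. These were Cks2, with −0.69 (SE 0.24, limma adjusted p = 0.452), and Mcm4, with −0.58 (SE 0.23, adjusted p = 0.522). The median over the members was −0.02, against 0.05 over all features. For 13 of 44 members the interval lay within 1 log2 unit of 0, so the arrays left room for differences of that size in the others.

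Further genes of the pathway were tested between the lines. Of 22 tested further replication genes, 21 passed the filter in both lines. Of these, 13 were called higher and 1 lower in the Fra-1 line between the knockouts, beside 22.3% and 18.6% of the features that passed in both lines, and 10 higher and 1 lower between the controls, beside 17.1% and 17.2%. The DNA ligase gene Lig1, which joins newly made fragments, had a log2 difference of 2.76 in the knockouts and 2.87 in the controls, and the origin firing gene Mcm10 had 2.17 in the knockouts and 2.04 in the controls. Of 24 tested further mitosis genes, 18 passed in both lines, and 12 of these were called higher and 0 lower in each comparison, beside the same shares. Among these, Anln, a scaffold of the cleavage furrow, had 2.34 in the knockouts and 3.76 in the controls, and the kinase gene Melk had 2.87 in the knockouts and 2.81 in the controls.

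The regulators above them differed by gene. Of 15 kinases, D cyclins and E2F or related factors, 13 passed in both lines, with 4 called higher and 2 lower in the Fra-1 line between the knockouts, and 5 higher and 2 lower between the controls. Over all features, 41.4% were called in either direction in the knockouts and 36.1% in the controls. Called higher were 30.8% of the 13 genes in the knockouts and 38.5% in the controls. The shares of features that passed in both lines were 22.3% and 17.1%. Called lower were 15.4% in each comparison, beside 18.6% in the knockouts and 17.2% in the controls. Cdk6, which pairs with D cyclins, was below background on all Fra-2 line arrays and was at least 4.93-fold higher in the Fra-1 line in the knockouts and at least 5.95-fold in the controls. Cdk6 passed the filter through the Fra-1 line alone, so that the filter favoured a difference for it. The D cyclins went in opposite directions: Ccnd1 was higher as given above, while Ccnd2 differed by −2.54 in the knockouts and −2.43 in the controls and Ccnd3 by −2.71 in the knockouts and −2.11 in the controls, all called.

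Ccnd3 had 3.64 and 3.97 in Fra-1 knockouts, 3.87 and 3.75 in Fra-1 controls, 6.35 and 6.68 in Fra-2 knockouts and 5.97 and 5.87 in Fra-2 controls. The growth regulator gene Myc differed by 2.26 in the knockouts and 1.77 in the controls, both called. The mitotic activators Foxm1 and Mybl2, the gene of B-MYB, were called higher in both comparisons, with 1.92 in the knockouts and 1.94 in the controls for Foxm1, and 1.48 in the knockouts and 1.59 in the controls for Mybl2.

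Of 18 tested brakes on the cell cycle, 1 was called higher and 7 lower in the Fra-1 line between the knockouts, and 1 higher and 6 lower between the controls. In either direction that is near the 41.4% of all features called in the knockouts and the 36.1% in the controls. Called lower were 38.9% in the knockouts and 33.3% in the controls, beside 18.6% and 17.2% of features that passed in both lines. Called higher were 5.56% in each comparison, beside 22.3% in the knockouts and 17.1% in the controls. The inhibitor of D cyclin kinases Cdkn2b had −2.73 in the knockouts and −2.16 in the controls, and the antiproliferative genes Btg2 and Btg1 had −1.73 and −1.35 in the knockouts and −1.32 and −1.31 in the controls, all called. The inhibitors Cdkn1a and Cdkn1b were lower by smaller amounts, −0.86 and −1.0 in the knockouts and −0.65 and −0.75 in the controls, all called. Lin9, called higher, is a subunit of the DREAM complex that also serves in the activating complex with B-MYB.

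**Figure D5:**
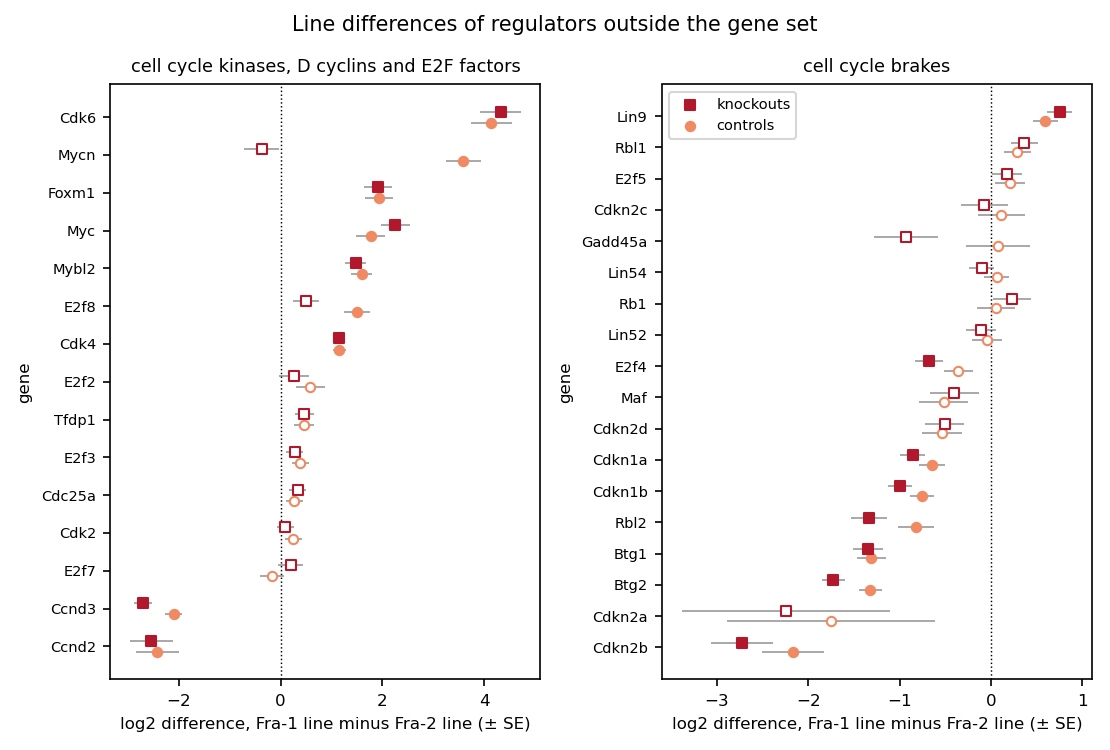
Log2 difference of the Fra-1 line minus the Fra-2 line, in knockouts (squares) and controls (circles), for regulators outside the 46 genes: kinases, D cyclins and E2F factors (left) and brakes (right); bars are SE and filled symbols were called. Cdk6, Foxm1, Myc and Mybl2 lie above 0 and Ccnd2, Ccnd3 and most called brakes below 0 in both comparisons. Fitted values of Cdk6 and Mycn include arrays below background, and both genes passed the filter through the Fra-1 line alone.

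Of 6 growth receptors and ligands of macrophages, 1 was called higher and 3 lower between the knockouts, and 2 higher and 3 lower between the controls, beside 41.4% of all features called in the knockouts and 36.1% in the controls. Csf1r, the receptor of CSF1, had 4.33 and 4.45 in Fra-1 knockouts, 4.84 and 4.40 in Fra-1 controls, 6.81 and 6.89 in Fra-2 knockouts and 6.84 and 7.02 in Fra-2 controls. Its differences were −2.46 in the knockouts and −2.31 in the controls, and those of the IL-4 receptor gene Il4ra were −2.49 in the knockouts and −2.81 in the controls, all called. None of the genes in these 5 further lists was called by limma in either comparison of knockout and control, nor in the test of the difference between them, and 0 to 3 genes of a list had an unadjusted p under 0.05.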

How the data were processed

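RNA of 8 samples was labelled with Cy3 from 50 ng of total RNA, per the labels. The deposited scanner files hold background-subtracted intensity values on a linear scale, made with Feature Extraction 11.5.1.1, per the file headers, and flags (scores of 0 or 1) for outliers, saturation and spots well above background. The deposited series matrix holds log2 values, which matched the scanner values once both were centred on each probe's median (Pearson r across 23420 probes rounds to 1.00 on every array); it served as an alternative. Its column medians ran from −0.16 to 0.25.

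Control spots and outlier spots (191 to 317 per array) were left out and spots of a probe were averaged. Signals were divided by the 75th percentile of their array's non-control probes and taken to log2. Probes had to exceed background clearly on both arrays of at least 1 group; 548 probes lacking a value on an array were dropped. Of 55681 probes 28026 were named by accession through RefSeq on GRCm38.p6, whereas the array headers give mm9, so no coordinates of probes are given. The brightest probe stood for a gene. A linear model with 4 group means was fitted to all arrays in limma 3.58.1 (R 4.3.3) with 4 residual and 2.00 prior degrees of freedom, with Benjamini-Hochberg adjustment over 22865 features. For a gene below background in a group, the bound sets the brighter group's mean against the dimmer group's, with each dim array raised to its lowest signal well above background. The pipeline was tested on simulated data. Tables used pandas 2.3.3 and numpy 2.4.6 under Python 3.11.15, and figures matplotlib 3.10.9.

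The members and all gene lists were chosen with earlier results of these data known. Values on every array were given for 12 set members (Mki67, Top2a, Cdk1, Ccnb1, Cdc20, Ccnd1, E2f1, Pcna, Mcm2, Mcm5, Rrm2 and Tyms), and per comparison for the 12 called members with the largest difference, or the 6 of smallest p in comparisons with under 6 calls. From further lists up to 4 called genes were named. A few genes of those lists are not reported here and were left out of their counts. Genes given beyond that rule, such as Mcm4, Mcm6, Hmgb2, Myc and the inhibitors, were chosen after their values were seen. Counts over genes that passed the filter in both lines (both arrays of at least 1 group of each line) were added after the data were seen. Replicate numbers follow the order of deposit.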

Additional observations from a re-analysis of the deposited data

How the results depend on the processing

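Alternatives were normexp on median signals (the files used hold no mean signals), quantile normalization, series matrix values, the mean of probes, a filter on all 8 arrays or none, slide as a block, only the arrays compared, single slides, and leaving out each array. Members called stayed at 0 for both knockout comparisons and their difference, and ran from 30 to 36 between the controls and from 29 to 38 between the knockouts. Of the 38 members called between the knockouts and the 34 called between the controls, none changed sign in the 16 refits. The refits reuse the arrays that gave the calls, so the kept signs add no independent support. No paired analysis was possible because the replicate numbers follow the order of deposit and pair no samples.

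With normexp the line medians were 1.21 in the knockouts and 1.14 in the controls for all members, 1.41 and 1.53 for mitosis genes, and 0.80 and 0.71 for replication genes. With the filter on all 8 arrays the replication median in the knockouts was 0.88. Within slide 1 the line medians in the knockouts were 1.38 for all members and 1.15 for replication genes. The Fra-2 knockout medians were 0.10 for all members and −0.0327 for replication genes within slide 1, and −0.34 for replication genes within slide 2. The difference of the knockout effects within slide 1 was −0.28 for all members, −0.12 for replication genes and −0.62 for mitosis genes. The cause of these shifts was not tested.

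Leaving out each array gave ranges of −0.37 to 0.041 (all members), −0.27 to −0.048 (replication) and −0.51 to 0.12 (mitosis) for Fra-1 knockout minus control. In that order they were −0.20 to −0.01, −0.29 to −0.11 and −0.22 to 0.06 for Fra-2 knockout minus control. For the difference of the effects they were −0.29 to 0.15, −0.071 to 0.22 and −0.42 to 0.17. Between the lines, over all members, replication and mitosis, they were 1.41 to 1.77, 0.98 to 1.12 and 1.80 to 2.12 in the knockouts, and 1.38 to 1.61, 0.76 to 1.04 and 1.72 to 2.59 in the controls. Dim genes are read less surely on Fra-2 knockout 1, where the lowest signal well above background was −3.58, against −4.45 to −4.98 on the others.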

Other observations

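Mycn, a MYC family gene outside the 46, was −6.53 and −6.50 in Fra-1 knockouts, below background on both arrays, against −3.42 and −2.79 in Fra-1 controls, both above background. It was at least 2.57-fold lower in Fra-1 knockouts than in Fra-1 controls and was not called in limma. On the Fra-2 line arrays it was below background throughout, at −5.68 and −6.60 in Fra-2 knockouts and −6.73 and −6.68 in Fra-2 controls. Fra-1 controls were at least 2.79-fold higher than Fra-2 controls. Both bounds are descriptions, since Mycn passed the filter only through the Fra-1 controls. Fibroblast marker signals were also lower in Fra-1 knockouts (40.6 to 63.3) than in Fra-1 controls (109 to 157), and their part in the Mycn values was not tested. The kinetochore gene Nuf2 was −5.66 and −5.32 in Fra-2 knockouts, below background, against −4.38 and −3.86 in Fra-2 controls, and was not called in limma. Nuf2 passed the filter through the Fra-1 line alone. It was therefore not well above background on both Fra-2 controls, and these values give no exact size. Both genes were picked for mention after their values were seen.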
